A study of Mus musculus with 12 samples.

Results

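The clustered histone genes of the mouse, named Hist1h to Hist4h, were followed in 12 bulk liver RNA libraries. Every row whose symbol begins with Hist1h, Hist2h, Hist3h or Hist4h was taken, which gave 70 of the 55536 genes in the deposited tables, and the 53 with at least 10 estimated counts summed over the 12 samples are described here. They comprise 5 H1, 10 H2A, 14 H2B, 11 H3 and 13 H4 genes. Of the 17 left out, 7 had no count in any sample. The members just inside the limit were Hist1h2bn and Hist1h2bf, with summed counts of 11.4 and 11.6, and those just outside were Hist1h2ab and Hist1h2ai, with 7.95 and 6.23. On GRCm38 the Hist1 cluster (43 members) spans chr13:21735064-23764406, Hist2 (7 members) chr3:96221119-96269141, Hist3 (2 members) chr11:58948920-58956830 and Hist4 (1 member) chr6:136801553-136804415.

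Livers came from wild-type C57BL/6J mice aged 8 weeks that had received an adenovirus through the tail vein 12 days earlier. The virus carried a short hairpin RNA against G0s2 (shG0s2), against Rgs16 (shRgs16) or against the bacterial lacZ gene (shLacZ, the control), with 4 samples in each group. All groups share the virus, the fast of 6 h and collection at zeitgeber time 12. The G0s2 protein blocks a lipase that releases stored fat, and the Rgs16 protein ends signalling by G proteins. The labels do not say what share of cells took up virus, nor whether each replicate is its own animal, so the spread that p-values rest on may be technical.

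Library totals were 18458222 to 27170419 estimated counts, the lowest being shG0s2 replicate 2. Values below are given as TPM, the deposited length-corrected level, for levels between genes, and as CPM, counts scaled to equal depth by TMM over the 12 samples, for one gene between groups. G0s2 was at 24.3 to 49.4 CPM in shG0s2, against 66.8 to 88.1 CPM in shLacZ (log2 fold change -0.98 ± 0.20, SE, edgeR adjusted p = 0.00301), but its TPM overlapped, at 60.4 to 125 in shG0s2 and 101 to 135 in shLacZ (ratio of means 0.832). Rgs16 was at 14.5 to 37.3 CPM in shRgs16, against 106 to 212 CPM in shLacZ (-2.51 ± 0.38, edgeR adjusted p = 0.00172), and also lower in shG0s2, at 43.4 to 71.3 CPM (-1.32 ± 0.24, edgeR adjusted p = 0.00236). The 10 hepatocyte markers all had counts in every group. shLacZ replicate 3 held the highest CPM of the 12 samples for 20 of the 53 members and for 17 of the 32 tested in at least 1 comparison, so results are also given without it.

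Core histones H2A, H2B, H3 and H4 package DNA into nucleosomes, and linker histone H1 binds where DNA enters and leaves them. Most clustered histone genes are switched on in S phase, when new chromatin must be filled, and their mRNAs end in a short stem-loop in place of a poly(A) tail. Stem-loop binding protein (Slbp) holds that hairpin through processing and translation, and the mRNAs are destroyed when DNA synthesis stops. Some clustered genes are also known to give polyadenylated transcripts in cells that have left the cycle. Replacement histones such as H3f3a lie outside the clusters and are made throughout the cycle.

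The stem-loop was searched in the annotated bases after the stop codon (GENCODE M21, GRCm38), as a stem of 6 bases that opens with GG, a loop of 4 bases that opens with TT, and the reverse complement of the stem. It was found in 39 of the 47 members with annotated bases there, at 25 to 59 bases after the stop, and in 9 of 18719 other protein-coding genes (0.0481%). The 5 forms found are shown because they are the shared 3' mark of the family and differ by type. The stem is in capitals and the loop in lower case.

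form 1: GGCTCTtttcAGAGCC

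form 2: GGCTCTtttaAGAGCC

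form 3: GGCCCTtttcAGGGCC

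form 4: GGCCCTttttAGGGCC

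form 5: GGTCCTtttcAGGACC

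Form 1 was found in 23 members (3 H1, 8 H2A, 7 H2B and 5 H3) and form 2 in 5 (2 H2B and 3 H3). The forms 3, 4 and 5 were found in 7, 2 and 2 members, all of them H4. In 18 members the annotated transcript runs over 200 bases beyond the stem-loop. In 6 members too few bases are annotated there to hold it, and in 8 it was not found, among them Hist1h2bc, Hist2h2be and Hist1h3g.

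Levels were concentrated in few copies. Only 7 members averaged 10 TPM or more over the 12 samples, 21 lay between 1 and 10 TPM, and 25 lay under 1 TPM. Hist1h2bc (H2B, 155 TPM), Hist1h1c (H1, 116 TPM), Hist2h2aa2 (H2A, 91.1 TPM) and Hist2h2aa1 (H2A, 75.1 TPM) held 76.8% of the summed TPM of the members. Hist1h4h (35.3 TPM) was the highest H4 gene, and no H3 gene averaged more than 3 TPM. The 53 members together took 0.0247% to 0.0265% of all counts in shG0s2, 0.0305% to 0.0366% in shRgs16 and 0.0350% to 0.0469% in shLacZ. Because the tissue was bulk liver, fewer cells that make these mRNAs and less of the mRNA in each such cell cannot be told apart.

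**Figure D1:**
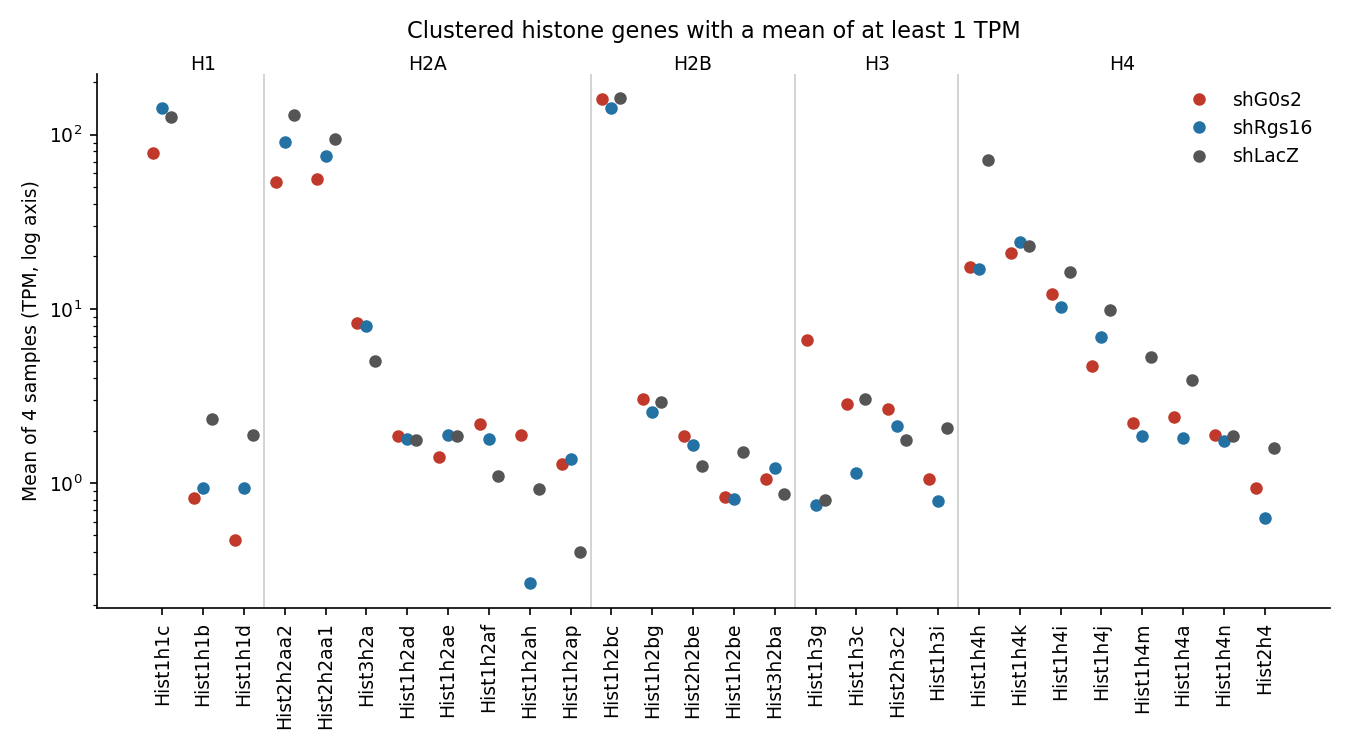
Mean level in TPM (log axis) of the 28 members that averaged at least 1 TPM over the 12 samples, ordered by histone type, with a point for each group mean of 4 samples. Hist1h2bc, Hist1h1c and the Hist2h2aa pair stand highest, and Hist1h4h is the H4 gene with the widest gap between both knockdowns and shLacZ.

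Most tested members were lower in both knockdowns than in shLacZ. In shG0s2, 29 members could be tested, of which 18 fell, 1 rose and 10 did not pass the threshold (edgeR quasi-likelihood test, adjusted p under 0.05). Over all 15592 genes tested 29.2% fell and 31.3% rose, 60.5% in all. The median log2 fold change of the 29 members was -1.37, against 0.01 for all genes. In 18 of them the shG0s2 samples all lay below the shLacZ samples (28.3% of all genes did so), and in 1 all lay above (27.6% of all genes).

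In shRgs16, 28 members could be tested, of which 17 fell and 11 did not pass, beside 24.5% lower and 24.6% higher among all 15324 genes, 49.1% in all. No member rose in shRgs16, by edgeR, DESeq2 or limma-voom, and 0 were higher at an unadjusted p under 0.05. The median was -0.98, against 0.01 for all genes, and 17 members had groups that did not overlap, all lower (23.1% of all genes). Of 27 members tested in both comparisons, 15 fell in both. Hist2h2aa1 and Hist2h2aa2, between which reads cannot be divided, count as 2 of these 15 and of the falls in each comparison. The 2 comparisons share the shLacZ samples, so that overlap is not independent support.

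The count cutoff bears on these numbers. In the shG0s2 comparison 5 members passed the low-count filter through 1 group only, which meant they had to differ. Without them 14 of 24 fell, and the member that rose was among those left out. In the shRgs16 comparison 1 member passed in this way, and 16 of the other 27 fell. Only members with no sample of the other group at the cutoff were set aside. The rest still held members that met it in every shLacZ sample but not in every knockdown sample. Examples are Hist1h4c in shRgs16 (counts of 5, 9, 10 and 3) and Hist1h4a in shG0s2 (16, 8, 17 and 4). The remaining counts are thus not free of that selection. Without shLacZ replicate 3, 17 of 30 fell in shG0s2 and 16 of 30 fell in shRgs16. The 21 members that passed in no comparison had summed counts of 11.4 to 88.1 and mean levels of 0.124 to 1.83 TPM.

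Scaling also bears on the direction of the abundant members. With libraries scaled by total count alone (library size alone, below) 17 members fell and 3 rose in shG0s2, with a median of -0.89 against 0.50 for all genes. In shRgs16 16 fell and 1 rose under that scaling, with a median of -0.68 against 0.31 for all genes. Summed TPM of all members was 447, 479.9, 465 and 456 in shG0s2, 537, 569, 580.2 and 524 in shRgs16, and 637, 694, 809 and 626 in shLacZ. These sums did not overlap between any of the 3 groups. Over all tested genes the median ratio of mean TPM to shLacZ was 1.64 in shG0s2 and 1.35 in shRgs16, so TPM ratios below are to be read against those shifts, a description added after the data were seen. The medians of the tested members were 0.627 and 0.693.

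**Figure D2:**
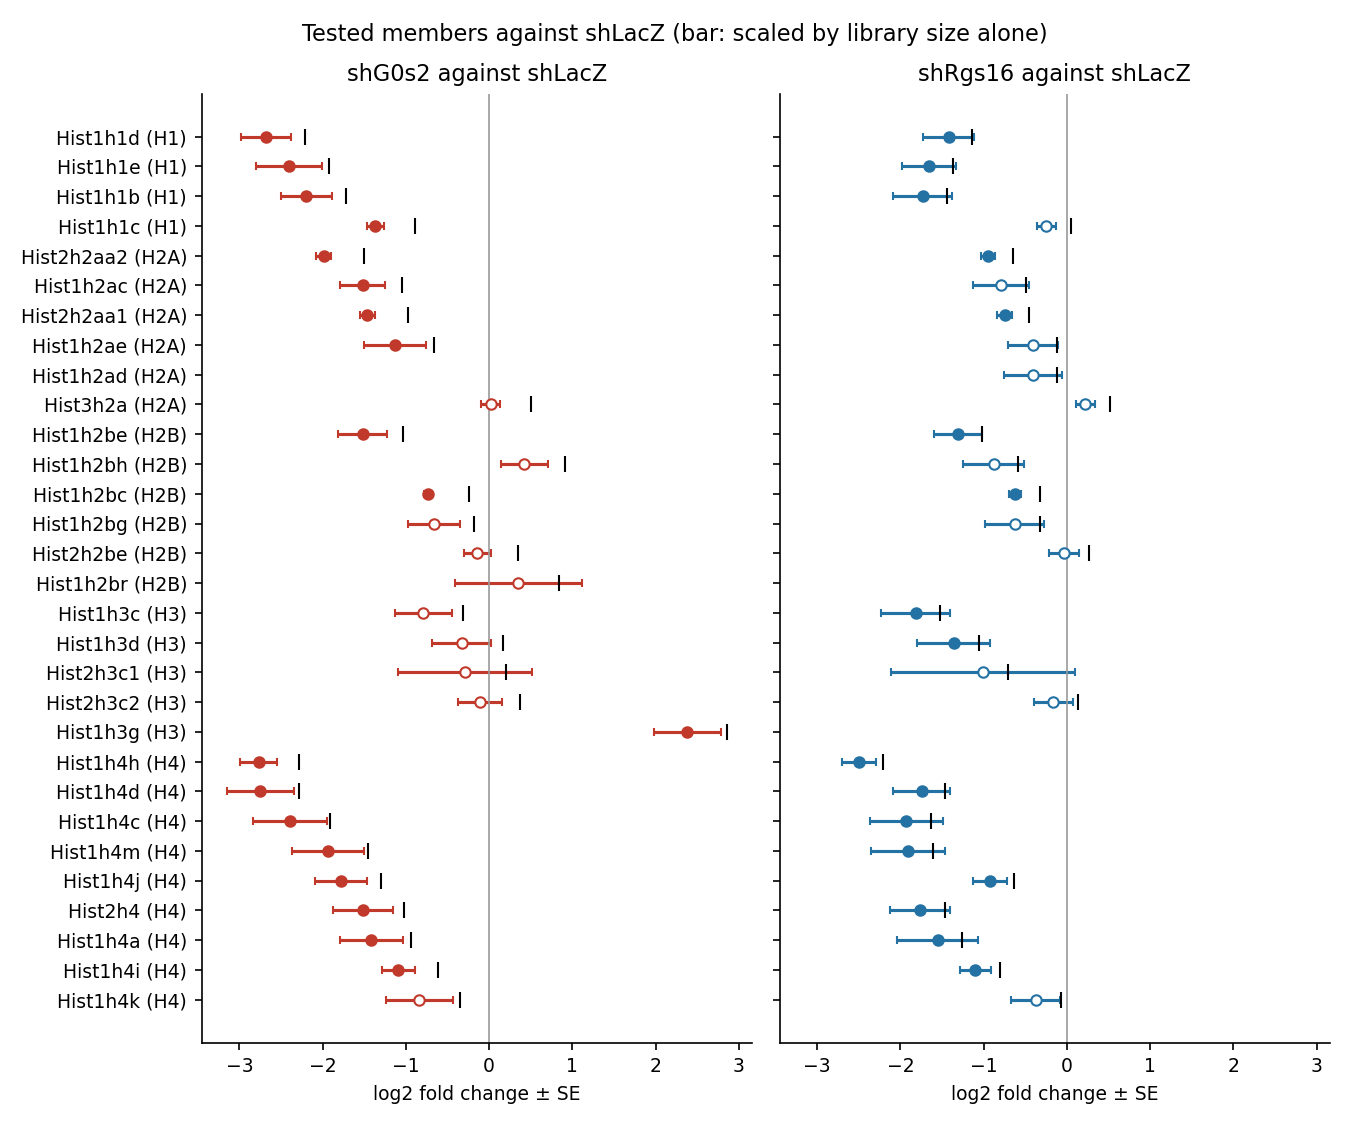
Log2 fold change against shLacZ with its SE for every tested member, grouped by type, in shG0s2 (left) and shRgs16 (right). Filled points passed the threshold, open points did not, and the black bar is the estimate when libraries were scaled by total count alone. H1 and H4 points lie to the left of 0 in both panels. Hist1h3g, drawn in the shG0s2 panel only, is the 1 filled point right of 0, where the open points of Hist1h2bh, Hist1h2br and Hist3h2a (0.42, 0.35 and 0.02) also lie, and in shRgs16 Hist3h2a alone is right of 0 (0.22).

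H1 linker histone genes fell together in shG0s2, where all 4 tested members were past the threshold, 1 of them through a filter passed in shLacZ alone. Of these, 3 also fell in shRgs16. Hist1h1c (chr13:23738808-23740367) is the main clustered H1 gene of these livers and was at 72.9, 58.9, 65.7 and 66.4 CPM in shG0s2, 145, 144, 173 and 121 CPM in shRgs16, and 188, 157, 199 and 148 CPM in shLacZ. The shG0s2 samples lay far below the others, while shRgs16 and shLacZ overlapped. Its log2 fold change was -1.37 ± 0.10 in shG0s2 (edgeR adjusted p = 4.58e-07) and -0.25 ± 0.12 in shRgs16 (edgeR adjusted p = 0.114). On the TPM scale Hist1h1c averaged 78.8 ± 4.25 in shG0s2, 143 ± 19.6 in shRgs16 and 126 ± 22.3 in shLacZ (SD, n = 4 each), so the shRgs16 mean lay above that of shLacZ on this scale.

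Hist1h1d (chr13:23553262-23560686) showed the steepest fall of an H1 gene in shG0s2. It was at 2.45, 2.68, 2.09 and 1.55 CPM in shG0s2, 4.23, 5.52, 7.31 and 4.21 CPM in shRgs16, and 11.3, 12.5, 23.3 and 9.94 CPM in shLacZ. No group overlapped another, and shLacZ replicate 3 stood well above the other controls. The log2 fold change was -2.68 ± 0.30 in shG0s2 (edgeR adjusted p = 5.77e-05) and -1.42 ± 0.31 in shRgs16 (edgeR adjusted p = 0.00546). Without that replicate it was -2.33 and -1.08. Hist1h1b was at 0.171 to 0.303 CPM in shG0s2, 0.159 to 0.509 CPM in shRgs16 and 0.990 to 1.51 CPM in shLacZ, and fell by 2.196 in shG0s2 and by 1.73 in shRgs16 on the log2 scale (edgeR adjusted p = 6.05e-05 and 0.00172). In shG0s2, Hist1h1b passed the filter through shLacZ alone.

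The promoter of Hist1h1d is shown because it holds the box that 4 of 5 H1 promoters share and that was not found in the other types here. The window is 250 bases before to 50 after the start in RefSeq (GRCm38.p6), chr13:23554782-23555081, plus strand, and capitals mark the TATA box letters TATAAA, the CCAAT letters and the H1 box letters AAACACA, on either strand.

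Hist1h1d promoter: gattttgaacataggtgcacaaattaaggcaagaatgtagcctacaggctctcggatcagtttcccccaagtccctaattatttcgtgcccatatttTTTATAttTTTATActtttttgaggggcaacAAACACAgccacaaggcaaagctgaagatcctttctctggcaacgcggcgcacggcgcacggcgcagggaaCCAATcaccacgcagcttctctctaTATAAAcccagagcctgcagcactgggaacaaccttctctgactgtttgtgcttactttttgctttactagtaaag

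In these windows AAACACA was found in 80% of the 5 H1 promoters and in 0% of those of each other type, against 7.14% of 27025 promoters. CCAAT was found in 100% of the H1, H2A, H2B and H3 promoters and in 25% of the 12 H4 promoters, against 37.9% of all. TATAAA was found in 57.4% of the 47 member promoters, against 14.2% of all. The octamer ATTTGCAT, known from H2B promoters, was found in 44.4% of H2A and 25% of H2B promoters, against 1.75% of all. A match of letters does not show binding.

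Among H2A genes, 4 of 5 fell in shG0s2 and 2 of 6 fell in shRgs16. Hist2h2aa1 and Hist2h2aa2 made up 2 of the 4 and both of those in shRgs16. Hist2h2aa1 (chr3:96245497-96246082) and Hist2h2aa2 (chr3:96239749-96240276) have identical coding sequences of 393 bases and no unique window of 50 bases, so reads cannot be divided between them and their sum is given. Both also overlap annotated Gm genes, so the sum may hold reads of these. The pair summed to 17.2, 20.4, 21.6 and 20.7 CPM in shG0s2, 37.6, 34.5, 37.2 and 38.5 CPM in shRgs16, and 63.6, 66.8, 69.9 and 66.5 CPM in shLacZ. The groups formed a ladder with no overlap. Hist2h2aa2 fell by 1.98 in shG0s2 and by 0.95 in shRgs16 on the log2 scale (edgeR adjusted p = 1.64e-08 and 4.30e-06), and Hist2h2aa1 fell by 1.47 and by 0.75 (edgeR adjusted p = 1.20e-07 and 4.89e-05). These separate values depend on how reads were divided, so the pair is a single signal counted as 2 members in every total. On the TPM scale the pair averaged 109 ± 9.96 in shG0s2, 166 ± 5.56 in shRgs16 and 224 ± 18.0 in shLacZ (SD, n = 4 each).

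Hist3h2a, an H2A gene of the small Hist3 cluster, did not pass in either comparison. It was at 9.38, 11.0, 9.86 and 10.1 CPM in shG0s2, 11.0, 13.3, 11.8 and 10.9 CPM in shRgs16, and 8.87, 9.57, 12.4 and 9.56 CPM in shLacZ, and the groups overlapped. On the TPM scale it averaged 8.32 ± 0.996 in shG0s2, 7.93 ± 0.979 in shRgs16 and 5.04 ± 1.001 in shLacZ (SD, n = 4 each), higher in both knockdowns without overlap, at ratios of 1.65 and 1.57. Its log2 fold change was 0.02 ± 0.11 in shG0s2 and 0.22 ± 0.12 in shRgs16 (edgeR adjusted p = 0.888 and 0.140). Scaled by library size alone it was called higher in both, at 0.51 and 0.52 (edgeR adjusted p = 0.00533 and 0.00669), close to the shift of all genes under that scaling in shG0s2. The annotated span of Hist3h2a overlaps that of Trim17, and the strand setting of the counting is not given in the sources used here, so reads of the 2 genes may be shared.

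H2B was carried by 1 gene. Hist1h2bc (chr13:23684199-23692908) was at 93.2, 90.0, 91.1 and 90.2 CPM in shG0s2, 99.8, 86.9, 109 and 103 CPM in shRgs16, and 157, 158, 149.7 and 150.3 CPM in shLacZ. Every knockdown sample lay below every control. The log2 fold change was -0.73 ± 0.05 in shG0s2 and -0.62 ± 0.07 in shRgs16 (edgeR adjusted p = 2.67e-07 and 2.02e-05). With library size alone it was -0.24 and -0.32, still past the threshold. On the TPM scale Hist1h2bc averaged 159 ± 6.03 in shG0s2, 142 ± 8.79 in shRgs16 and 162 ± 6.29 in shLacZ (SD, n = 4 each), and shG0s2 and shLacZ overlapped.

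The other H2B genes were low. Hist1h2be fell in both knockdowns, by 1.52 in shG0s2 and by 1.31 in shRgs16 on the log2 scale (edgeR adjusted p = 0.000698 and 0.00277). Its annotated span overlaps that of Hist1h1e, which also fell, and reads of these neighbours may be shared. Hist2h2be, at 2.57 to 3.42 CPM in shG0s2, 2.65 to 3.96 CPM in shRgs16 and 2.72 to 3.55 CPM in shLacZ, had log2 fold changes of -0.14 ± 0.16 and -0.03 ± 0.18 (edgeR adjusted p = 0.476 and 0.887), while its mean TPM was 1.49 and 1.32 times that of shLacZ. Hist1h2bg, at 0.434 to 0.865 CPM in shG0s2, 0.358 to 1.05 CPM in shRgs16 and 0.613 to 1.36 CPM in shLacZ, was not past the threshold in either comparison.

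Few H3 genes passed the test. In shG0s2 none of 5 tested fell by edgeR, with 1 lower at an unadjusted p under 0.05, 0 lower by DESeq2 and 1 by limma-voom, and 1 rose. In shRgs16, 2 of 4 fell, both in the Hist1 cluster. Hist1h3c was at 1.14, 0.649, 0.445 and 0.361 CPM in shG0s2, 0.215, 0.145, 0.704 and 0.239 CPM in shRgs16, and 1.36, 1.18, 1.06 and 0.994 CPM in shLacZ. shG0s2 replicate 1 reached into the control range, and shRgs16 replicate 3 stood about as high as shG0s2 replicate 2. Hist1h3c fell by 1.82 in shRgs16 (SE 0.41, edgeR adjusted p = 0.00335), and in shG0s2 its log2 fold change was -0.79 ± 0.34 (edgeR adjusted p = 0.0640). Hist2h3c2, an H3 gene of the Hist2 cluster, was at 1.74, 1.08, 0.890 and 1.41 CPM in shG0s2, 1.47, 1.38, 1.09 and 1.07 CPM in shRgs16, and 1.13, 1.23, 1.77 and 1.51 CPM in shLacZ. The groups overlapped, and its log2 fold change was -0.11 ± 0.26 in shG0s2 and -0.16 ± 0.23 in shRgs16 (edgeR adjusted p = 0.733 and 0.588). Its mean TPM was 1.497 and 1.198 times that of shLacZ, with overlap.

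Hist1h3g (chr13:23535422-23535951) was the 1 member that rose in shG0s2. Its estimated counts, rounded, were 38, 25, 32 and 25 in shG0s2, 5, 3, 4 and 4 in shRgs16, and 1, 6, 8 and 3 in shLacZ. All shG0s2 samples lay above all others, and the counts in the other groups were too low for a test between them. Hist1h3g rose in shG0s2 by 2.38 ± 0.40 on the log2 scale (a ratio of 5.21, edgeR adjusted p = 0.000282), but it passed the filter through shG0s2 alone. On the TPM scale it averaged 6.63 ± 0.979 in shG0s2, 0.745 ± 0.120 in shRgs16 and 0.795 ± 0.570 in shLacZ (SD, n = 4 each). Only 45.95% of its windows of 50 bases are unique among annotated transcripts, so part of its reads may belong to other H3 copies. Hist1h2af lies between it and Hist1h4h, the H4 gene that fell most, with gaps of 1.12 and 2.39 kb, and its promoter is shown beside the one of that gene. The windows are chr13:23535168-23535467 for Hist1h3g and chr13:23530794-23531093 for Hist1h4h, both plus strand, with CCAAT letters in capitals on either strand.

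Hist1h3g promoter: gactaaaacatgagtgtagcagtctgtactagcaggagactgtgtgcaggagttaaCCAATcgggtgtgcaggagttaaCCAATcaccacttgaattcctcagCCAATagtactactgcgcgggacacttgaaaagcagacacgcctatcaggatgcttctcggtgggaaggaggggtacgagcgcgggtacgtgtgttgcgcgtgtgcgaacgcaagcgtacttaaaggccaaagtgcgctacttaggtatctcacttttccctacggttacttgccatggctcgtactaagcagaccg

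Hist1h4h promoter: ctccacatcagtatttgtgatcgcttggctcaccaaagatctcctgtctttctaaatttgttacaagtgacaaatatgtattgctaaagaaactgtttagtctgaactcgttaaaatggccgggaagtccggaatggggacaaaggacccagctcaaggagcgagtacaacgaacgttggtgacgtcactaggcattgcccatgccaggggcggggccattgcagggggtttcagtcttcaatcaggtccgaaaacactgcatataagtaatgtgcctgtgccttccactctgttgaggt

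Hist1h3g has 3 CCAAT matches and Hist1h4h has none of the 4 motifs searched.

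In each knockdown 8 of 9 tested H4 genes fell. Of these, 3 passed the filter through shLacZ alone in shG0s2 (Hist1h4c, Hist1h4d and Hist1h4m) and 1 in shRgs16 (Hist1h4m), which fixed their direction. Without them 5 of 6 fell in shG0s2 and 7 of 8 in shRgs16. Hist1h4h (chr13:23531050-23531519) was at 2.38, 2.60, 1.64 and 2.06 CPM in shG0s2, 2.83, 2.76, 2.89 and 2.07 CPM in shRgs16, and 10.9, 16.0, 20.6 and 12.3 CPM in shLacZ. Even the lowest control was over 3 times the highest knockdown sample. The log2 fold change was -2.77 ± 0.22 in shG0s2 and -2.50 ± 0.21 in shRgs16 (edgeR adjusted p = 1.64e-06 and 5.59e-06), ratios of 0.147 and 0.177. Without shLacZ replicate 3 it was -2.56 and -2.31. Hist1h4i, at 2.51 to 4.35 CPM in shG0s2, 2.80 to 4.22 CPM in shRgs16 and 6.29 to 10.5 CPM in shLacZ, fell by 1.09 in shG0s2 and by 1.10 in shRgs16 on the log2 scale (edgeR adjusted p = 0.000480 and 0.000413). The low-count genes Hist1h4c and Hist1h4d had log2 fold changes of -2.39 and -2.75 in shG0s2, where the filter fixed their direction. In shRgs16 these were -1.93 and -1.74, both past the threshold. Their counts there were 5, 9, 10 and 3 and 8, 8, 12 and 8, so they met the filter mainly through shLacZ. The 7 of 8 in shRgs16 are thus not free of that selection. Hist1h4k was the 1 tested H4 gene that did not pass, with log2 fold changes of -0.84 ± 0.40 and -0.38 ± 0.29 (edgeR adjusted p = 0.0899 and 0.306), and only 28.5% of its windows of 50 bases are unique.

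Summing over copies makes a value less dependent on how reads were divided among them. Summed H4 averaged 64.5 ± 10.8 TPM in shG0s2, 66.3 ± 11.6 TPM in shRgs16 and 139 ± 38.9 TPM in shLacZ (SD, n = 4 each), which gives ratios of 0.465 and 0.478 to shLacZ. Summed H2A averaged 127 ± 9.27 TPM in shG0s2, 182 ± 4.95 TPM in shRgs16 and 236 ± 21.1 TPM in shLacZ, ratios of 0.539 and 0.771. In both types every knockdown sample lay below every control. Of the H2A sums, the Hist2h2aa pair held 109 TPM in shG0s2, 166 TPM in shRgs16 and 224 TPM in shLacZ. With the pair left out, mean summed H2A in TPM was higher in both knockdowns than in shLacZ. This did not hold as summed CPM with TMM. There H2A averaged 32.2 in shG0s2, 51.5 in shRgs16 and 80.9 in shLacZ, of which the pair held 20.0, 36.9 and 66.7. On that scale the mean of the rest was lowest in shG0s2 and in shRgs16 near that of shLacZ. Hist1h4h held 39.2% of summed H4 over the 12 samples. With Hist1h4h left out, the H4 sums of both knockdowns overlapped those of shLacZ in TPM. As summed CPM with TMM, H4 was at 9.35 to 11.5 in shG0s2, 10.9 to 13.7 in shRgs16 and 26.8 to 48.0 in shLacZ. On that scale every knockdown sample stayed below every control with Hist1h4h left out. Summed H1 was 0.614 times shLacZ in shG0s2, without overlap, and 1.10 times in shRgs16, with overlap. Without Hist1h1c, which holds nearly all of that sum, H1 in shRgs16 was 0.444 times shLacZ. Summed H2B was 0.998 times shLacZ in shG0s2, with overlap, and 0.874 times in shRgs16, without. Summed H3 averaged 17.6 ± 2.63 TPM in shG0s2, 8.40 ± 1.64 TPM in shRgs16 and 12.4 ± 1.99 TPM in shLacZ. Hist1h3g decided that order: without it the H3 sum in shG0s2 was 0.938 times shLacZ. As summed CPM with TMM, every type was below shLacZ in both knockdowns, with H3 at 0.834 times shLacZ in shG0s2 and H1 at 0.796 times in shRgs16, both with overlap. These sums were not tested.

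**Figure D3:**
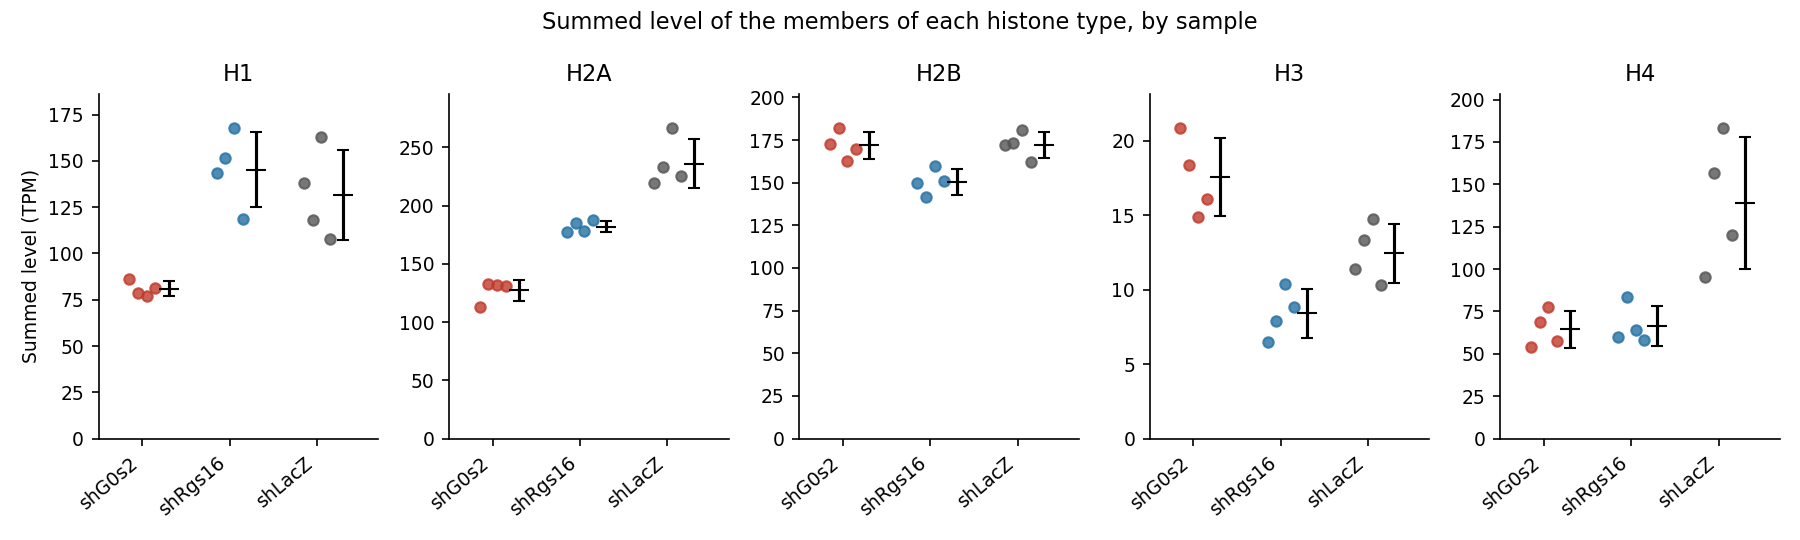
Summed TPM of the members of each histone type in every sample, with the mean and SD of each group beside its 4 points. H4 and H2A are lower in every knockdown sample than in any shLacZ sample, H1 lies below shLacZ without overlap in shG0s2 and overlaps it in shRgs16 (1.10 times shLacZ, but 0.796 as summed CPM with TMM and 0.444 without Hist1h1c), and H3 is highest in shG0s2 (1.41 times shLacZ, but 0.834 as summed CPM with TMM). In TPM the H4 sums overlap shLacZ once Hist1h4h is left out, and mean H2A without the Hist2h2aa pair is higher in both knockdowns. As summed CPM with TMM, H4 without Hist1h4h stays below shLacZ without overlap, and mean H2A without the pair is lower in shG0s2.

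Both knockdowns were compared directly in a model of all 12 samples, in which 32 members were tested. Relative to shRgs16, 5 members fell in shG0s2 and 2 rose, beside 20.5% lower and 21.0% higher among all 16018 genes, 41.5% in all. The samples did not overlap for 6 members that were lower (20.0% of all genes) and 3 that were higher (19.8%). The members that fell were Hist1h1c (-1.13 ± 0.11), Hist1h1d (-1.27 ± 0.31), Hist2h2aa2 (-1.05 ± 0.10), Hist2h2aa1 (-0.73 ± 0.10) and Hist1h4j (-0.87 ± 0.28), with edgeR adjusted p-values of 4.97e-06, 0.00561, 1.06e-06, 3.53e-05 and 0.0217. Reads cannot be divided between the 2 Hist2h2aa genes, so their falls are not separate. Under library size alone 4 members fell and 4 rose, and Hist1h4j was no longer called (edgeR adjusted p = 0.0717).

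The members that rose in shG0s2 relative to shRgs16 were Hist1h3g (2.82 ± 0.39, edgeR adjusted p = 3.63e-05) and Hist1h2bh (1.29 ± 0.33, edgeR adjusted p = 0.00507). Hist1h3g passed the filter through shG0s2 alone here too, which fixed its direction, and without members of that kind 1 rose. Hist1h2bh, an H2B gene 5.76 kb beyond Hist1h3g, was at 1.01, 1.04, 0.719 and 0.686 CPM in shG0s2, 0.287, 0.254, 0.274 and 0.596 CPM in shRgs16, and 0.469, 0.801, 0.665 and 0.663 CPM in shLacZ. Its shG0s2 samples lay above its shRgs16 samples, but shLacZ overlapped both. Hist1h4h did not pass this comparison, with a difference of -0.28 ± 0.22 (edgeR adjusted p = 0.332), and neither did Hist1h2bc, at -0.12 ± 0.06 (edgeR adjusted p = 0.137).

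**Figure D4:**
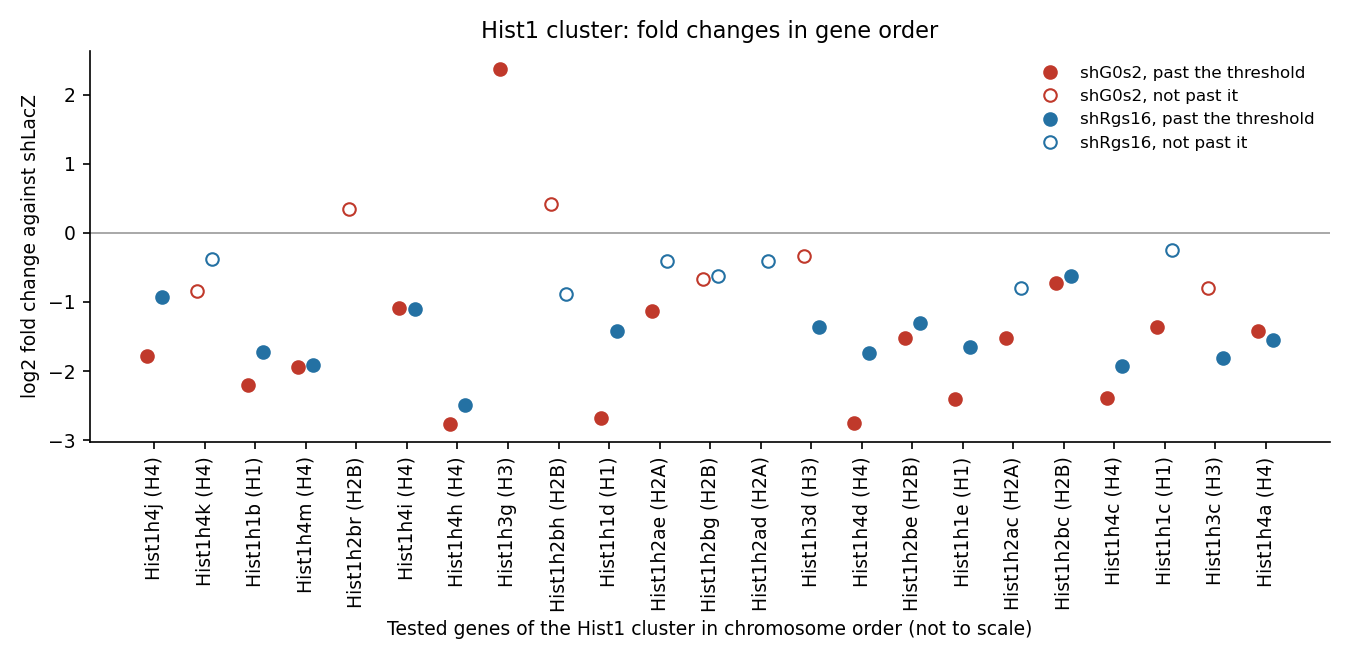
Log2 fold change against shLacZ of the tested genes of the Hist1 cluster in chromosome order (order only, not distance), for shG0s2 and shRgs16. Filled points passed the threshold. Falls occur along the whole cluster, and Hist1h3g, which rose in shG0s2, stands next to Hist1h4h among the tested genes, which fell most in both.

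The position in the cluster and the form of the annotated 3' end were set beside the calls. In the Hist1 cluster 15 of 22 tested members fell in shG0s2 and 14 of 21 fell in shRgs16, and in Hist2 it was 3 of 6 in each. Of these 3, 2 were Hist2h2aa1 and Hist2h2aa2, between which reads cannot be divided. Where the transcript is annotated to end within 200 bases of the stem-loop, 5 of 7 fell in shG0s2 and 5 of 8 in shRgs16. Where it extends further, 10 of 15 fell in shG0s2 and 9 of 15 in shRgs16. Where it was searched and not found, 2 of 5 fell and 1 rose in shG0s2, and 2 of 3 fell in shRgs16. Where too few bases are annotated to search, 1 of 2 fell in each. Among members with at least 50% unique windows, 15 of 21 fell in shG0s2 and 14 of 21 in shRgs16, and below that 3 of 8 and 3 of 7 fell. These classes were not tested against each other.

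Genes for DNA replication moved the other way. Of 31 such genes, 28 rose and 2 fell in shG0s2 and 20 rose and 4 fell in shRgs16, with median log2 fold changes of 1.23 and 0.48. Among all genes tested 31.3% rose and 29.2% fell in shG0s2, and 24.6% rose and 24.5% fell in shRgs16. Lig1, the DNA ligase that joins Okazaki fragments, was at 34.3, 32.0, 26.3 and 31.3 CPM in shG0s2, 11.8, 13.9, 8.76 and 11.0 CPM in shRgs16, and 5.30, 4.29, 4.17 and 4.87 CPM in shLacZ, and rose by 2.76 ± 0.11 and 1.29 ± 0.15 on the log2 scale (edgeR adjusted p = 4.68e-09 and 3.09e-05). Mcm5 and Mcm3, subunits of the replicative helicase, had log2 fold changes of 2.19 and 1.61 in shG0s2 and of 1.31 and 0.32 in shRgs16, all past the threshold. Mcm10, which helps to start replication forks, fell by 1.23 in shG0s2 and by 0.75 in shRgs16. It averaged 89.6 CPM in shLacZ, far above Mcm5 (6.27 CPM) and Mcm3 (9.20 CPM). The whole list summed to 418 CPM there, so Mcm10 weighs on the summed level. Summed over the list, replication genes stood at 179% ± 3.64 of the shLacZ mean in shG0s2 and 118% ± 9.36 in shRgs16, where the clustered histone genes stood at 45.0% ± 0.822 and 68.1% ± 5.94 (CPM, SD, n = 4 each). The list does not tell apart the phases of the cycle.

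**Figure D5:**
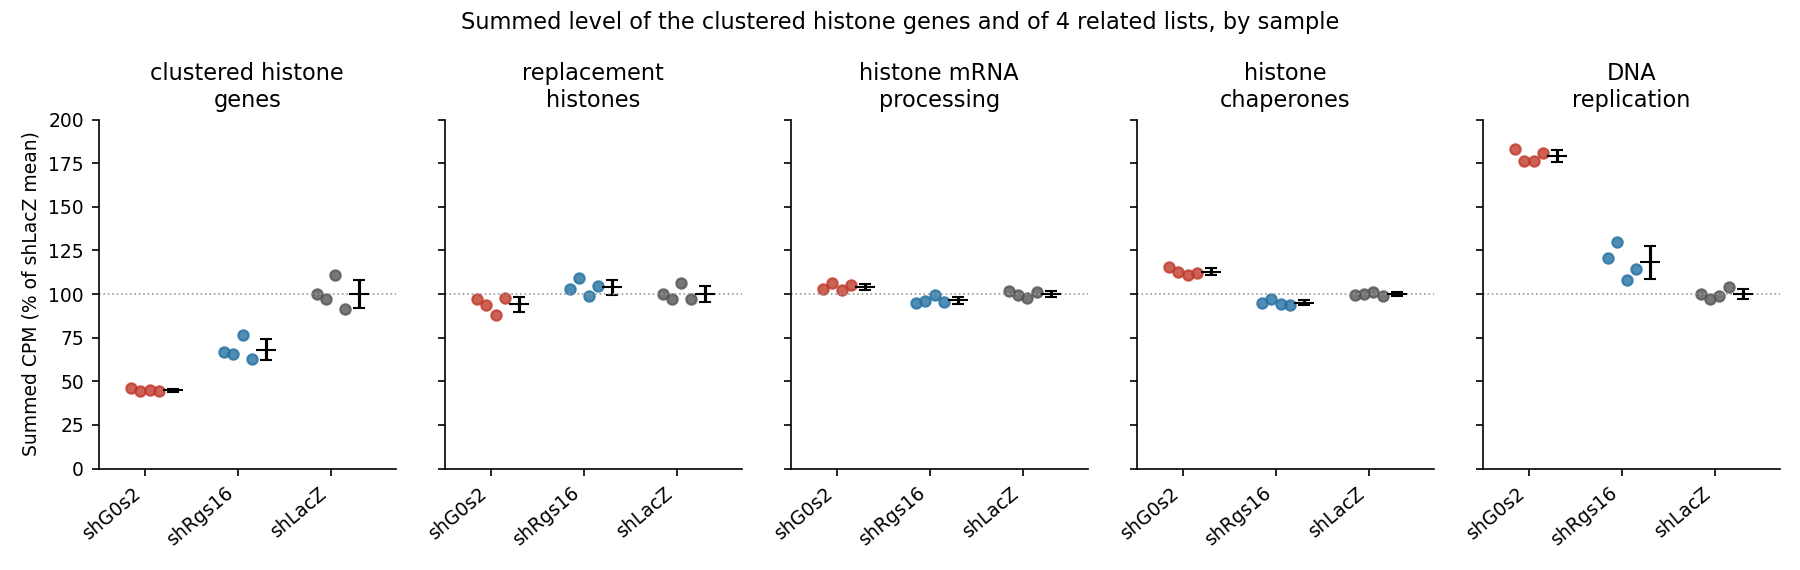
Summed CPM of the 53 clustered histone genes and of 4 lists of related genes in every sample, as a percentage of the shLacZ mean, with the mean and SD of each group. The clustered genes stand at 44.2% to 46.1% in shG0s2 and the DNA replication genes at 176% to 183%, while the other 3 lists stay between 88.2% and 115% in all groups.

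Genes that make and trim histone mRNA split. Of 23, 12 rose and 3 fell in shG0s2 and 3 rose and 3 fell in shRgs16, with medians of 0.32 and 0.04. Over all genes tested 31.3% rose and 29.2% fell in shG0s2, and 24.6% rose and 24.5% fell in shRgs16. Both shRgs16 counts were thus below the shares of all genes. Under library size alone 22 rose in shG0s2 and 16 rose in shRgs16, a scaling under which the median of all genes was 0.50 and 0.31. Slbp was at 29.9, 37.5, 30.0 and 34.4 CPM in shG0s2, 21.1, 22.6, 18.8 and 20.3 CPM in shRgs16, and 21.0, 19.0, 21.2 and 22.3 CPM in shLacZ. It rose in shG0s2 by 0.68 ± 0.09 (edgeR adjusted p = 2.88e-05) and in shRgs16 was at -0.01 ± 0.08 (edgeR adjusted p = 0.913). By library size alone Slbp was called higher in shRgs16, at 0.29 (edgeR adjusted p = 0.0152), close to the median of all genes under that scaling. Its mean TPM in shRgs16 was 1.40 times that of shLacZ, without overlap. Ccne1, the cyclin whose kinase switches on histone transcription at entry to S phase, averaged 18.2 ± 3.74 CPM in shG0s2, 4.18 ± 0.361 CPM in shRgs16 and 4.02 ± 1.04 CPM in shLacZ (SD, n = 4 each), and E2f1 rose in both knockdowns, by 1.27 and 0.49. Sympk, the scaffold of the cleavage complex, fell by 0.55 in shG0s2 and by 0.25 in shRgs16, but was not called by library size alone (-0.07 and 0.05). Cstf2, a subunit linked to the same complex, rose by 0.37 in shG0s2 and fell by 0.49 in shRgs16, where it was not called by library size alone (-0.19, edgeR adjusted p = 0.0955).

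Markers of several cell types moved with the knockdowns too, and their part in the histone results was not tested. Over all genes tested 31.3% were called higher and 29.2% lower in shG0s2, and 24.6% and 24.5% in shRgs16. The counts for endothelial, cholangiocyte, and B and plasma cell markers were not far above those shares. In shG0s2 9 of 10 hepatocyte markers fell, and 10 of 10 stellate cell and fibroblast, 9 of 10 Kupffer cell and 8 of 12 T and NK cell markers were called higher, with 1 of the T and NK cell list called lower. In shRgs16 it was 7 of 10 hepatocyte markers that fell and 2 that rose, while 7 of 10 stellate, 8 of 9 Kupffer and 9 of 12 T and NK cell markers were called higher, with 1 of the T and NK cell list called lower. By library size alone 3 hepatocyte markers fell and 3 rose in shRgs16, and 8 fell and 1 rose in shG0s2. Of erythroid precursor markers 6 of 9 rose and 2 fell in shG0s2, and 1 of 7 rose and 2 fell in shRgs16. Of 10 endothelial markers 2 rose and 3 fell in shG0s2, and 3 rose and 0 fell in shRgs16. Of B and plasma cell markers 1 of 7 rose in shG0s2 and 2 of 7 in shRgs16, of cholangiocyte markers 2 of 6 rose in each, and of 8 neutrophil and myeloid precursor markers none passed the edgeR threshold in either (1 higher at an unadjusted p under 0.05 in shG0s2 and 0 in shRgs16, and 4 and 1 higher by library size alone). Summed stellate markers ranged from 1025 to 1301 CPM in shG0s2, 420.3 to 745.5 CPM in shRgs16 and 240.0 to 336.1 CPM in shLacZ, and no listed marker of stellate cells, Kupffer cells, hepatocytes or T and NK cells was at 0 in any group. Summed hepatocyte markers were at 33307 to 55349 CPM in shG0s2, 62467 to 68216 CPM in shRgs16 and 55164 to 68110 CPM in shLacZ.

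Other RNAs without a poly(A) tail had few counts, and the labels name depletion of ribosomal RNA. Rn7sk, the abundant 7SK RNA, had 26 to 98 counts per library in shG0s2, 28 to 56 in shRgs16 and 14 to 113 in shLacZ, and shLacZ replicate 4 held the highest value of the 12. Rn7s1 and Rn7s2, copies of the 7SL RNA with equal counts, each had 49 to 185 in shG0s2, 37 to 112 in shRgs16 and 40 to 343 in shLacZ, where replicate 4 had 343 and the other controls 40 to 56. Rpph1, the RNA of ribonuclease P, had 4 to 27 in shG0s2, 6 to 17 in shRgs16 and 4 to 25 in shLacZ. These genes were picked after the values were seen, and how far such RNAs were kept in these libraries was not tested. The authors' deposited table calls 1 member higher and 19 lower for shG0s2 and 0 higher and 18 lower for shRgs16 at an adjusted p under 0.05.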

How the data were processed

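Bulk liver RNA was sequenced in 12 libraries, 4 each of shG0s2, shRgs16 and shLacZ, grouped and numbered by the sample titles. The authors deposited 1 table per knockdown with estimated counts per gene, per the file headers, with 5789 to 6625 values per sample that were not whole. The deposited tables also give TPM, corrected for transcript length, and for the authors' comparison a fold change (ratio), its log2, and p-values before and after adjustment. Tools in the submitters' processing notes are SAMtools 1.9, GATK 3.8, Bowtie2 2.2.9, fastp 0.19.5 and DESeq2. Not given in the sources used here are the genome build, annotation, counting program and strand setting. Of 55536 gene IDs 55450 matched GENCODE M21 (GRCm38), which supplied coordinates and transcripts, and promoters came from RefSeq (GRCm38.p6), found for 47 members. The shLacZ columns were identical in both tables (0 differences over 8 columns), so the samples were joined.

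Counts were rounded, filtered with filterByExpr (minimum count 10), scaled by TMM and tested on whole tables with edgeR 4.0.16 in R 4.3.3 (robust quasi-likelihood F test, two-sided), with Benjamini-Hochberg adjustment over all genes at 0.05. Each knockdown was fitted with shLacZ in 8 samples, and shG0s2 against shRgs16 in all 12. Alternatives were DESeq2 1.42.0, limma-voom (3.58.1), RLE scaling, library size alone, no filter, 1 CPM in 4 samples, a replicate block, another set of samples, members with 50 or more counts and leaving out each sample. The steps were tested on simulated data with known changes. There edgeR and limma-voom kept close to their nominal false discovery rate, while DESeq2, an alternative only, went above it, so its counts of calls are the less strict. Replicates of one group differed beyond counting noise (chi-square divided by its degrees of freedom, 11.25 to 43.39). Estimated counts divide reads among similar genes by a model: the median member has 50.5% unique windows of 50 bases and 25 members have under 50%. Totals of 18458222 to 27170419 counts leave members under about 1 CPM with few counts per library. Genes named with values are the 3 members of each type with the highest TPM, the 3 smallest p-values in each direction and comparison, and from each related list the 2 smallest p-values plus Slbp; Hist1h1e, Hist1h2be, Hist1h4c, Hist1h4d and Hist1h4j were named after their values were seen. The members and lists were chosen with earlier results of these data known.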

Additional observations from a re-analysis of the deposited data

Results flagged for a closer look

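In 63 sets of 4 samples of one group, 5 held a sample whose gap to the nearest other was larger than Dixon's 95% limit for 4 samples. Chance alone sets apart about 1 in 20 such sets. Hist1h3c was at 0.704 CPM in shRgs16 replicate 3, with the other shRgs16 samples at 0.145 to 0.239 CPM. Hist1h4h was at 2.07 CPM in shRgs16 replicate 4, with the others at 2.76 to 2.89 CPM. Hist1h4k was at 1.49 CPM in shRgs16 replicate 2, with the others at 0.915 to 1.004 CPM. Hist1h2bh was at 0.596 CPM in shRgs16 replicate 4, with the others at 0.254 to 0.287 CPM, and without that sample its fall in shRgs16 passed the threshold (log2 fold change -1.24). Summed H2A was at 113 TPM in shG0s2 replicate 1, with the other shG0s2 samples at 131 to 132 TPM. The first 4 all lie in shRgs16.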

How the results depend on the processing

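Of 47 results on the 16 named members, none lost its call or reversed as a called gene under the alternatives in which it was tested. With the filter of 1 CPM in 4 samples 11 of the 47 were not tested, Hist1h2bh among them, and with the other set of samples 1 was not. Calls were gained with library size alone (4), limma-voom (2), the other set of samples (1), the replicate block (3) and a sample left out (9). The number of members that rose in shG0s2 was 1, against 3 by library size alone, 0 without the members that passed the filter through 1 group (chosen after seeing the data) and 1 to 2 when a sample was left out. For shRgs16 it was 0, against 1 by library size alone and 0 to 1 when a sample was left out, the 1 coming without shLacZ replicate 3. The number that fell in shRgs16 was 17, against 10 of 16 tested with a filter of 1 CPM in 4 samples, which tests fewer genes, and 16 to 18 when a sample was left out. In shG0s2 it was 18 and 17 to 19. The number higher in shG0s2 than in shRgs16 was 2, against 1 with the filter of 1 CPM, 4 by library size alone, 1 without the members that passed through 1 group and 2 to 3 when a sample was left out, and the number lower was 5 and 5 to 6. Ratios of summed levels moved most. As summed CPM with TMM, the ratios of shG0s2 to shLacZ were 0.361 (H1), 0.398 (H2A), 0.602 (H2B), 0.834 (H3, reversed from 1.41) and 0.280 (H4), and those of shRgs16 were 0.796, 0.637, 0.650, 0.541 and 0.341 in that order of types. By library size alone shG0s2 stood at 0.511 (H1), 0.860 (H2B) and 1.19 (H3) and shRgs16 at 0.800 (H2B). Without the most abundant member of each type the ratios were 0.337 (H1), 0.693 (H2A), 1.27 (H2B), 0.938 (H3, reversed) and 0.701 (H4) in shG0s2, and 0.444 (H1), 0.858 (H2A) and 0.734 (H4) in shRgs16. For H2A this dropped Hist2h2aa2 but kept Hist2h2aa1, and reads cannot be divided between them. With both left out, mean summed H2A in TPM was higher in both knockdowns than in shLacZ, but as summed CPM with TMM it was lower in shG0s2. When a sample was left out they ranged from 0.579 to 0.666 (H1), 0.527 to 0.563 (H2A), 0.978 to 1.02 (H2B), 1.32 to 1.504 (H3) and 0.421 to 0.520 (H4) in shG0s2, and from 1.04 to 1.20 (H1), 0.753 to 0.806 (H2A), 0.856 to 0.892 (H2B), 0.622 to 0.727 (H3) and 0.432 to 0.535 (H4) in shRgs16. The cause of these shifts between scales was not tested. With the replicate number as a block, 20 members fell in shG0s2 and 17 in shRgs16. Deviations of same-numbered samples correlated at -0.075 to 0.135, with 2 of 12 pairs over 0.1 and 7 of 12 samples closest to their own number, so the numbers were not taken to pair the samples. Depth limits the 21 members that could not be tested.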

Other observations

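Replacement histones outside the clusters showed mixed changes. Of 11 genes, 5 rose and 3 fell in shG0s2, and 5 rose and 2 fell in shRgs16. Over all genes tested 31.3% rose and 29.2% fell in shG0s2, and 24.6% rose and 24.5% fell in shRgs16. The numbers that fell were thus near or below those shares. H1f0, the linker histone of non-dividing cells, was at 102, 88.4, 99.1 and 109.5 CPM in shG0s2, 136, 126, 143 and 123 CPM in shRgs16, and 187, 181, 176 and 187 CPM in shLacZ. It fell by 0.85 and by 0.47 on the log2 scale (edgeR adjusted p = 8.03e-07 and 5.60e-05) and stayed called by library size alone, at -0.36 and -0.17. On the TPM scale H1f0 averaged 0.902 times shLacZ in shG0s2 and 0.976 times in shRgs16, with overlap in both. Cenpa, the H3 variant of centromeres, rose by 0.98 and 0.83 (edgeR adjusted p = 4.05e-05 and 0.000117), and averaged 14.9 ± 2.32 CPM in shG0s2, 13.6 ± 1.21 CPM in shRgs16 and 7.68 ± 1.11 CPM in shLacZ (SD, n = 4 each). H2afj, an H2A variant, fell by 0.26 in shG0s2 and by 0.68 in shRgs16, and was not called in shG0s2 by library size alone (0.22). On the TPM scale it was at 94.2 to 109 in shG0s2, 55.2 to 58.5 in shRgs16 and 61.6 to 81.8 in shLacZ, so it was higher in shG0s2 than in shLacZ without overlap on that scale.

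Among 26 genes of histone chaperones and chromatin assembly, 15 rose and 3 fell in shG0s2, and 8 rose and 6 fell in shRgs16. The shRgs16 counts were near the shares of all genes (24.6% higher and 24.5% lower). In shG0s2 those shares were 31.3% and 29.2%. Hat1, which acetylates new H4, averaged 27.3 ± 1.96 CPM in shG0s2, 17.3 ± 1.52 CPM in shRgs16 and 11.3 ± 0.949 CPM in shLacZ (SD, n = 4 each), and rose by 1.29 and 0.61 on the log2 scale (edgeR adjusted p = 1.65e-07 and 0.000216). Nap1l1, a chaperone of H2A and H2B, rose by 0.78 in shG0s2 and fell by 0.36 in shRgs16, where it was not called by library size alone (-0.06). Supt16, a subunit of the FACT complex, was at 0.04 ± 0.06 in shG0s2 (edgeR adjusted p = 0.639) and fell by 0.63 ± 0.06 in shRgs16 (edgeR adjusted p = 1.38e-05), a difference between the knockdowns of 0.65 ± 0.06 (edgeR adjusted p = 8.51e-07). Anp32e, which removes H2A.Z, rose by 0.34 and 0.53.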
